A study of Mus musculus with 6 samples.

Results

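The genes of fatty acid synthesis, elongation, desaturation and triglyceride synthesis were followed in liver RNA from 6 untreated female mice aged 8 weeks. Of these mice, 3 were of the inbred strain NZB/BinJ (NZB) and 3 of the inbred strain SM/J (SM), each on an expression array of its own. Mice of both strains came from the Jackson Laboratory, ate chow from weaning at 3 weeks, and went without food for 4 hours before their livers were perfused with 50 mL of saline and frozen. The labels name no engineered allele in either strain, and describe the arrays of each strain as biological replicates. Members were chosen by function, with earlier results of these data known. They are the probe sets whose platform gene symbol is one of 33 listed genes. This gave 74 of the 45037 probe sets on the array, which read 32 of the 33 genes, and G6pdx was not analysed here. Where a gene had several probe sets, the brightest over all 6 arrays, called its leading probe set, stands for the gene.

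The liver makes fatty acids from carbohydrate. Mitochondrial citrate is exported and cleaved to acetyl-CoA, acetyl-CoA carboxylase turns this into malonyl-CoA, and fatty acid synthase builds palmitate from it with NADPH as the reductant. Elongases and desaturases then lengthen the chain and add double bonds, and acyltransferases and phosphatidic acid phosphatases place the acyl chains on glycerol to form triglyceride. Insulin, through SREBP1c, and glucose, through ChREBP, raise the transcription of many of these genes after a meal, and fasting lowers it.

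Array medians lay between 6.60 and 6.66 on the log2 expression scale. Xist, the RNA of the inactive X chromosome, read 12.66, 12.63 and 12.61 in NZB, against 12.84, 7.32 and 12.91 in SM, so that SM replicate 2 stood apart from the other 5 arrays. No Y-linked probe set read above 5.67 on any array, including that one, and this value serves as background here. Without SM replicate 2, the counts given below for the members were 4 higher and 7 lower in NZB. The hepatocyte markers summed to similar levels (17.07 to 17.13 in NZB and 17.11 to 17.15 in SM, as log2 of the sum). Such a sum rests mostly on the brightest markers, such as Alb at 14.89 in NZB and 14.87 in SM. Singly, 2 of 8 were lower in NZB, Tat (-0.73) and Hnf4a (-0.38), and none higher (1 lower without SM replicate 2). Of 3 measured adipocyte markers none passed the test, and Adipoq and Lep stayed under background on all 6 arrays. Of the B and plasma cell markers 3 of 5 were higher in NZB, with a summed level of 12.61 to 13.65 in NZB and 9.13 to 9.30 in SM. The same held for 4 of 6 Kupffer cell markers (12.60 to 12.89 in NZB and 12.20 to 12.33 in SM). T cell markers were higher in 3 of 4 cases, 1 of which, Cd3g, read under background on all 6 arrays. That count was 1 without SM replicate 2 and 2 without any other array but SM replicate 3. Pancreas acinar markers were higher in 2 of 4 cases (0 without SM replicate 2 or NZB replicate 3, and 1 without SM replicate 1 or NZB replicate 2), and erythroid markers lower in 1 of 3 (0 without NZB replicate 1 or 3, or with trended and robust variances). Endothelial markers were higher in 2 of 5 cases and lower in 1 (0 lower with the mean of a gene's probe sets), while 0 of 5 stellate (2 higher with array weights, and 1 without SM replicate 1) and 0 of 4 cholangiocyte markers passed. Over all genes 7.09% passed the test as higher in NZB and 11.2% as lower. The part of other cell types in the differences below was not tested, and in whole liver fewer cells of a type and less RNA per cell cannot be told apart.

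The members did not all shift one way between the strains. Among the members, genes for the last steps of triglyceride synthesis and 2 of 4 lipogenic regulators passed the test, all as lower in NZB. The lower calls of Srebf1 and Dgat1 did not hold under every alternative. The carbon suppliers and the elongases included genes that rose. Of the regulators outside the member list, Usf1 (0.44) and Pparg (0.28) were higher in NZB, and Ppargc1b (-1.13) and Rxra (-0.39) lower. A gene was called where the Benjamini-Hochberg adjusted p of the limma fit, taken over all 45037 probe sets, was under 0.05. Of the 32 member genes, 5 (15.6%) had a higher level in NZB and 9 (28.1%) a lower one, while 18 missed the threshold. Over all 18193 genes by their leading probe set, 18.3% were called, 7.09% as higher and 11.2% as lower. The members' median log2 difference, NZB minus SM, was 0.03, beside 0.021 over all genes, and it turned to -0.05 without SM replicate 3. All 14 called genes had NZB arrays wholly above or below the SM arrays, and so did 1 gene that was not called, Mlxipl. The strains did not overlap in 39.4% of all genes. For the leading probe set of each of the 18 genes not called, the 95% interval of the difference lay within 2-fold both ways. The farthest bound was 0.79, for Acly. This did not hold for every other probe set, since the second Scd1 probe set had an interval of 0.16 to 1.78. Of the called genes, Elovl3 rose at least 2-fold, and Thrsp, Lpin1 and Lpin2 fell at least 2-fold, beside 1.53% of all genes with a called change of that size in either direction. Single arrays moved the count of higher genes, which was 8 without SM replicate 1 and 3 without NZB replicate 3.

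**Figure D1:**
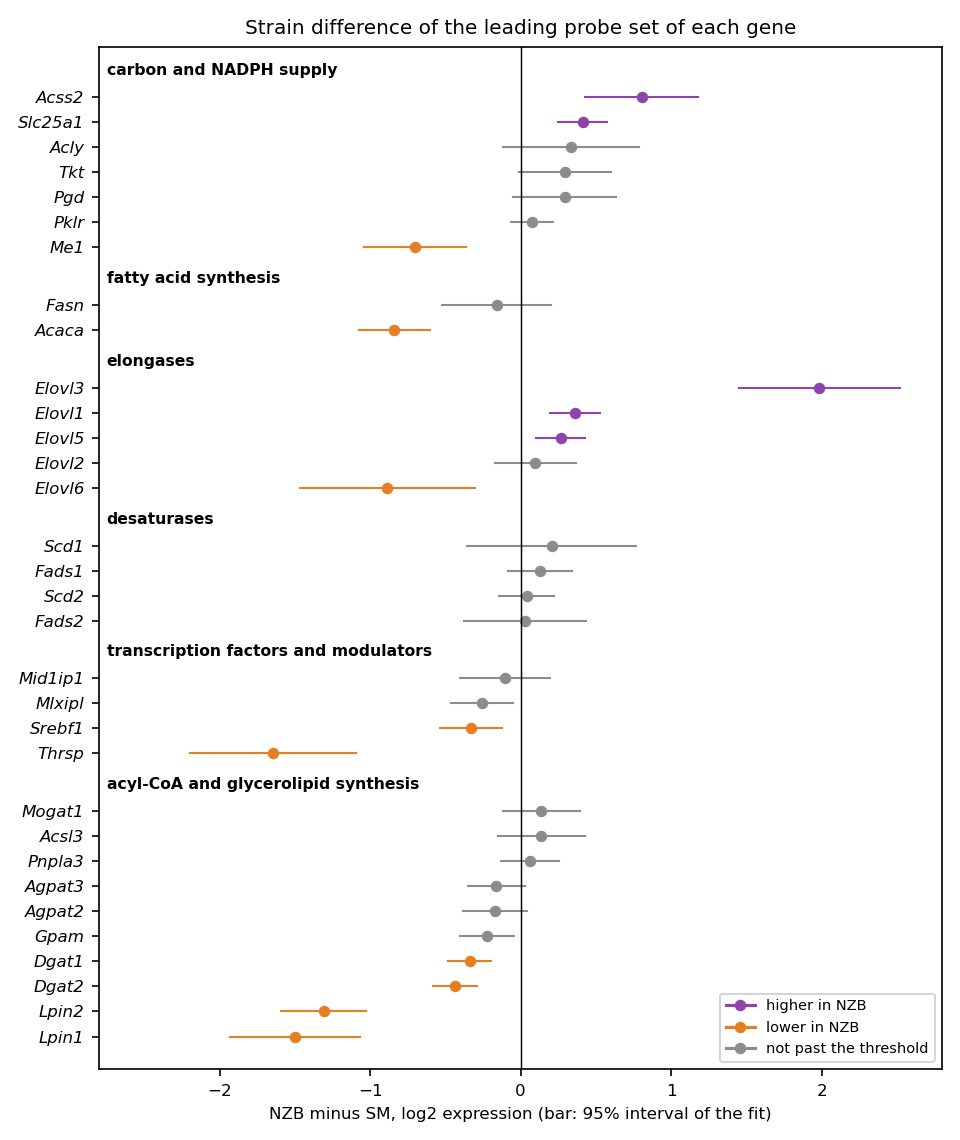
Difference in log2 expression, NZB minus SM, of the leading probe set of each of 32 genes, by role, with the 95% interval of the limma fit from 3 NZB and 3 SM mice. The lipins, Thrsp, Acaca and Elovl6 lie to the left of 0, Elovl3 lies far to the right, and the intervals of the 4 desaturases include 0.

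The promoters of the 4 called genes with the largest differences that have an entry in the RefSeq table (build GRCm38.p6) are shown. All 4 genes were lower in NZB. Each runs 5′ to 3′ from 250 bases before the transcription start to 50 after it. Of the 32 genes, 26 matched the table, with 37 start sites among them, and Elovl3, the called gene with the largest difference, did not. For Lpin2, which has 3 start sites in the table, the first is shown. Capitals mark the E-box CACGTG, which ChREBP and clock factors among others bind, the CCAAT box CCAAT and the GC box GGGCGG, searched on both strands.
Thrsp (chr7:97417501-97417800, - strand): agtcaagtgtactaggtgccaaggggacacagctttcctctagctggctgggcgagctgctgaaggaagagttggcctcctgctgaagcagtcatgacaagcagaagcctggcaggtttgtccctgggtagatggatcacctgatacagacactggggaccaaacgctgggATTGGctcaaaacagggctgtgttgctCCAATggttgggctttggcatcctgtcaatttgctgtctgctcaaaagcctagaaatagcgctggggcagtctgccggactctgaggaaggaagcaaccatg
Lpin1 (chr12:16610917-16611216, - strand): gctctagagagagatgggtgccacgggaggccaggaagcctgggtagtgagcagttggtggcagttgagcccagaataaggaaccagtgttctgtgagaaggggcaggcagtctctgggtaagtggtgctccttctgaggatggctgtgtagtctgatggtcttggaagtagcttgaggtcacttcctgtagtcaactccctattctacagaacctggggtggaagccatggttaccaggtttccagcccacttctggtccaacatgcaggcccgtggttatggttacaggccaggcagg
Lpin2 (chr17:71183282-71183581, + strand): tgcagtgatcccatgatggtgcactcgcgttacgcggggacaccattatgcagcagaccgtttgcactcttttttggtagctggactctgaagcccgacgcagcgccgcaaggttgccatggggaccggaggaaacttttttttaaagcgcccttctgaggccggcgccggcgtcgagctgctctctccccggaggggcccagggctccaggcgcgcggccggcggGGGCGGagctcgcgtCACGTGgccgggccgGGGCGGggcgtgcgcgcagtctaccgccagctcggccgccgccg
Elovl6 (chr3:129532136-129532435, + strand): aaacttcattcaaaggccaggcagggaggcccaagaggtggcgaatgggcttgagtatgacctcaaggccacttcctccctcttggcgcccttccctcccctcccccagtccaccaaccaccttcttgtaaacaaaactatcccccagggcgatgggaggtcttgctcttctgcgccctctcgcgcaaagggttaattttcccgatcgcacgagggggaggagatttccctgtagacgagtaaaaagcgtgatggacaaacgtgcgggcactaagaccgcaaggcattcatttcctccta
The Thrsp window held 2 CCAAT boxes, the Lpin2 window 1 E-box and 2 GC boxes, and the Lpin1 and Elovl6 windows none of these letters. No printed motif overlapped another. Among the 37 windows of the members, 4 held an E-box, 18 a CCAAT box and 20 a GC box. Over 32851 promoters of the same length the shares were 7.15%, 37.4% and 35.7%. A match of letters is a description of the reference sequence, which is that of C57BL/6J and of neither strain measured here.

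Among the regulators, 2 of 4 were lower in NZB and none was higher, beside 11.2% and 7.09% of all genes. Thrsp, a thyroid hormone responsive gene whose product promotes lipogenesis, read 10.90, 12.10 and 11.24 in NZB, against 13.09, 13.01 and 13.06 in SM. The NZB mice spread over 1.20, with replicate 2 nearest to SM, while the SM mice lay within 0.085 of each other. Thrsp was 3.12-fold lower in NZB (log2 difference -1.64, SE 0.244, adjusted p = 0.00261). Another of its probe sets was lower by more (-1.91, adjusted p = 0.00240), and the dimmest, at 7.83 in NZB and 7.69 in SM, was not called (0.14). Srebf1, which encodes SREBP1, the factor that switches on the fatty acid synthesis genes, read 11.03, 11.33 and 11.07 in NZB, against 11.57, 11.45 and 11.40 in SM. It was 1.26-fold lower (log2 difference -0.33, SE 0.0910, adjusted p = 0.0401), but the call ended without SM replicate 1 (adjusted p = 0.104), SM replicate 2 (0.0980), NZB replicate 1 (0.121) or NZB replicate 3 (0.140), and after quantile normalization (0.0922). Mlxipl, which encodes ChREBP, had all 3 NZB arrays below the SM arrays (11.71, 12.07 and 11.95 in NZB, against 12.21, 12.10 and 12.19 in SM) and did not pass the test (log2 difference -0.26, SE 0.0921, adjusted p = 0.0984). Mid1ip1, whose product helps acetyl-CoA carboxylase to polymerize, differed by -0.10 (95% interval -0.40 to 0.19).

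Carbon and NADPH supply held genes of both directions, with 2 of 7 higher in NZB, 1 lower and 4 not past the test. Over all genes 7.09% were higher and 11.2% lower. Acss2, which makes cytosolic acetyl-CoA from acetate, read 10.87, 10.68 and 10.77 in NZB, against 10.25, 10.15 and 9.51 in SM. It was 1.75-fold higher in NZB (log2 difference 0.80, SE 0.167, adjusted p = 0.0128), and its next brightest probe set was called as well (0.70, adjusted p = 0.0420). Without NZB replicate 3 the call ended (adjusted p = 0.0510). Slc25a1, the mitochondrial citrate carrier, read 11.51, 11.54 and 11.59 in NZB, against 11.18, 11.21 and 11.01 in SM, a narrow spread in both strains. It was 1.33-fold higher (log2 difference 0.41, SE 0.0715, adjusted p = 0.00548).

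Me1, the cytosolic malic enzyme that yields NADPH, went the other way. It read 10.60, 11.15 and 11.07 in NZB, against 11.85, 11.61 and 11.45 in SM, with NZB replicate 1 lowest, and was 1.63-fold lower in NZB (log2 difference -0.70, SE 0.149, adjusted p = 0.0139). Its dimmer probe set also had the NZB arrays below the SM arrays and was not called (-0.44, adjusted p = 0.112). The ATP citrate lyase gene Acly and the pentose phosphate genes Pgd and Tkt shared another pattern. The NZB mice spread little in these genes and the SM mice widely. Acly read 11.33, 11.49 and 11.34 in NZB, against 11.56, 11.02 and 10.57 in SM, and its range was 0.17 among NZB mice and 0.98 among SM mice. SM replicate 1 read above the NZB mean in Acly and Pgd, and SM replicate 3 below every NZB array in all 3 genes. Their differences were 0.33, 0.29 and 0.29 (adjusted p = 0.309, 0.242 and 0.188). Without SM replicate 1 all 3 passed the test as higher in NZB, at 0.59, 0.47 and 0.43 (adjusted p = 0.0173, 0.0231 and 0.0402). Without SM replicate 3 the differences were 0.10, 0.11 and 0.13. Pklr, the liver pyruvate kinase gene, differed by 0.08 (95% interval -0.07 to 0.22).

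Of the 2 genes that build palmitate, 1 was lower in NZB, beside 11.2% of all genes. Acaca, the acetyl-CoA carboxylase gene for malonyl-CoA, read 9.50, 9.67 and 9.42 in NZB, against 10.59, 10.26 and 10.25 in SM, so that no NZB array came within 0.5 of an SM array. It was 1.79-fold lower (log2 difference -0.84, SE 0.104, adjusted p = 0.00105). Its other probe set, at 6.70 in NZB and 6.65 in SM, differed by 0.05, and the mean of both by -0.40 (adjusted p = 0.0144). Fasn, the fatty acid synthase gene, read 10.16, 10.56 and 10.31 in NZB, against 10.82, 10.54 and 10.15 in SM, and the strains overlapped (log2 difference -0.16, SE 0.160, adjusted p = 0.564, 95% interval -0.52 to 0.20).

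The elongases, which add carbon to an acyl chain, were called in 4 of 5 cases, 3 higher in NZB and 1 lower. Of all genes 18.3% were called, 7.09% as higher and 11.2% as lower. Elovl3, which makes very long saturated and monounsaturated chains and is known in mouse liver as a male-biased gene, read 8.31, 8.43 and 9.38 in NZB, against 6.58, 6.79 and 6.80 in SM. NZB replicate 3 was the highest by about 1 log2 unit. Elovl3 was 3.96-fold higher in NZB (log2 difference 1.99, SE 0.236, adjusted p = 0.000827), and still higher without that mouse (1.65, adjusted p = 7.2e-05). Elovl1, an elongase of very long saturated chains, read 10.20, 10.38 and 10.17 in NZB, against 9.84, 9.92 and 9.90 in SM and was 1.29-fold higher (log2 difference 0.36, SE 0.0733, adjusted p = 0.0113). A second probe set of it was called in the same direction (0.32, adjusted p = 0.0324). The other 2 were not called (0.28 and 0.09, limma adjusted p = 0.0627 and 0.414).

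Elovl5, which elongates polyunsaturated chains, read 13.32, 13.26 and 13.37 in NZB, against 13.14, 12.94 and 13.06 in SM. It was 1.20-fold higher (log2 difference 0.27, SE 0.0718, adjusted p = 0.0368). The call ended without NZB replicate 1, 2 or 3 (adjusted p = 0.0904, 0.0627 and 0.130) and without SM replicate 2 or 3 (0.126 and 0.0633). It also ended with the array medians aligned (0.0651). The other Elovl5 probe set, at 13.23 in NZB and 12.98 in SM, was not called (0.25, limma adjusted p = 0.0764). Elovl6, which takes palmitate to stearate and is a target of SREBP1, was the elongase that fell. It read 9.17, 9.63 and 8.95 in NZB, against 10.77, 9.85 and 9.79 in SM, with SM replicate 1 standing about 1 log2 unit above the other SM mice. It was 1.85-fold lower in NZB (log2 difference -0.89, SE 0.257, adjusted p = 0.0496), just under the threshold. The difference was -0.57 without SM replicate 1 (adjusted p = 0.0628), and the call also ended without SM replicate 2 (0.0656), NZB replicate 1 (0.122) or NZB replicate 3 (0.171), after quantile normalization (0.0771), with trended and robust variances (0.163) and with the mean of its 3 probe sets (-0.50, 0.118). Elovl2, an elongase of long polyunsaturated chains, differed by 0.10 (95% interval -0.17 to 0.37).

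None of the 4 desaturases, the enzymes that insert double bonds, passed the test by its leading probe set (limma, and 0 of 4 at an unadjusted p under 0.05). Over all genes 18.3% were called. Dimmer probe sets of Scd1 (limma unadjusted p = 0.0245), Fads1 (0.00458) and Fads2 (0.0350 and 0.0297) did lie under that unadjusted limit. Scd1, the main stearoyl-CoA desaturase of liver, read 13.42, 13.76 and 13.76 in NZB, against 14.05, 13.41 and 12.85 in SM, so that the SM mice spanned 1.20 and enclosed all NZB mice. The second Scd1 probe set read 10.56, 11.41 and 11.21 in NZB, against 10.76, 10.33 and 9.19 in SM, with a larger difference that was not called (0.97, adjusted p = 0.109). Fads2 and Fads1, the desaturases of polyunsaturated fatty acids, differed by 0.03 and 0.13 (95% intervals -0.38 to 0.44 and -0.08 to 0.34). Fads2 read 11.50, 11.67 and 11.60 in NZB, against 11.09, 11.62 and 11.96 in SM. Here SM replicate 1 was the lowest SM mouse and SM replicate 3 the highest, the reverse of Scd1. The other 2 probe sets of Fads2 had the opposite sign and were not called (-0.29 and -0.23, adjusted p = 0.137 and 0.124). The first read 11.35, 11.27 and 11.24 in NZB, against 11.34, 11.53 and 11.85 in SM, and in the other all NZB arrays lay below the SM arrays. A dimmer probe set of Fads1 was lower in NZB (-0.54, adjusted p = 0.0364), at 7.58, 7.28 and 7.26 in NZB and 7.67, 8.24 and 7.83 in SM. Scd2, a desaturase gene more active in brain than in liver, differed by 0.04.

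**Figure D2:**
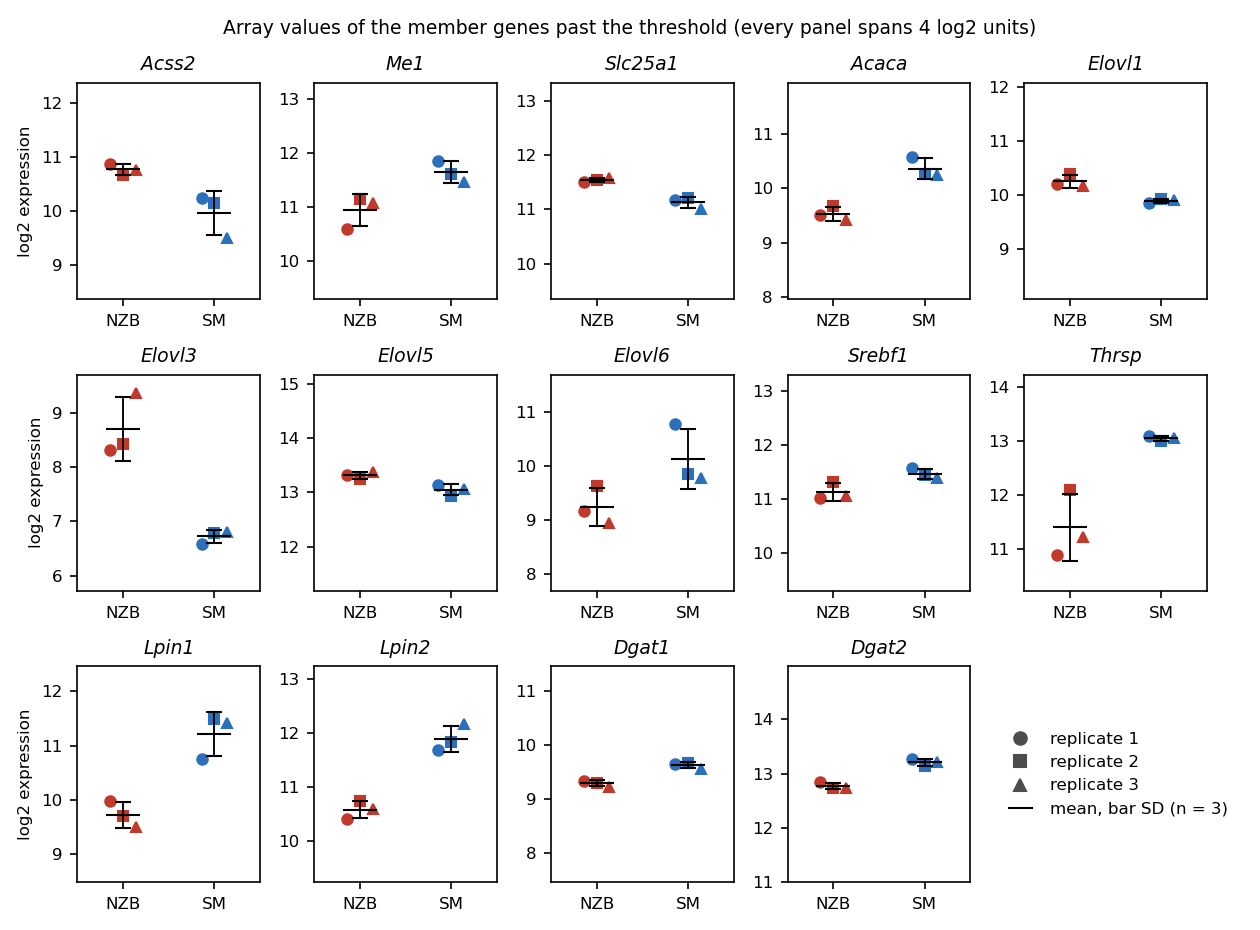
Log2 expression of the 14 member genes past the threshold on each of 3 NZB arrays and 3 SM arrays, with the mean and SD, each panel spanning 4 log2 units. The strains do not overlap in any panel, and the NZB mice spread most in Elovl3 and Thrsp and the SM mice most in Elovl6.

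In acyl-CoA and glycerolipid synthesis 4 of 10 genes were called, beside 18.3% of all genes, and all 4 were lower in NZB. Of these, 2 encode lipins, the phosphatases that turn phosphatidate into the diacylglycerol used for triglyceride, and 2 encode the enzymes that add the last acyl chain. Lpin1, whose product also acts as a transcriptional coactivator and whose gene responds to fasting and glucocorticoids in mouse liver, read 9.97, 9.70 and 9.49 in NZB, against 10.75, 11.49 and 11.42 in SM. It was 2.83-fold lower in NZB (log2 difference -1.50, SE 0.190, adjusted p = 0.00114), and its other probe set was lower too (-1.14, adjusted p = 0.0157). SM replicate 1 was the lowest SM mouse in both probe sets. Lpin2, a lipin prominent in liver, read 10.42, 10.74 and 10.60 in NZB, against 11.69, 11.83 and 12.16 in SM, and the nearest arrays of the strains were 0.95 apart. It was 2.48-fold lower (log2 difference -1.31, SE 0.125, adjusted p = 0.000244). Of its other 3 probe sets, 2 were lower (-1.90 and -1.51, adjusted p = 3.6e-05 and 0.00132), and the third lay under background on all 6 arrays.

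Dgat2, the acyltransferase that makes triglyceride from newly made fatty acids in liver, read 12.84, 12.73 and 12.73 in NZB, against 13.26, 13.15 and 13.21 in SM. It was 1.35-fold lower in NZB (log2 difference -0.43, SE 0.0648, adjusted p = 0.00267), and its second probe set gave -0.41 (adjusted p = 0.00270). Both probe sets separated the strains with a spread under 0.12 within each. Dgat1, the other diacylglycerol acyltransferase gene, read 9.34, 9.29 and 9.22 in NZB, against 9.64, 9.67 and 9.56 in SM and was 1.26-fold lower (log2 difference -0.34, SE 0.0640, adjusted p = 0.00828). Its leading probe set is marked by its identifier as able to bind related transcripts, and the one that is not so marked differed by 0.15 (limma adjusted p = 0.276), at 6.13 in NZB and 5.99 in SM. The mean of both differed by -0.10 and was not called (adjusted p = 0.261).

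Gpam, which starts glycerolipid synthesis by acylating glycerol 3-phosphate at the mitochondrion, read 11.34, 11.55 and 11.34 in NZB, against 11.71, 11.55 and 11.66 in SM. It did not pass (log2 difference -0.23, SE 0.0796, adjusted p = 0.0939), and of the alternatives run it passed only without NZB replicate 2 (-0.30, adjusted p = 0.04996). Its dimmer probe set had the opposite sign (0.26) and was not called. The next acylation is catalysed by the Agpat enzymes. Agpat2 differed by -0.17 and Agpat3 by -0.16 (95% intervals -0.39 to 0.04 and -0.35 to 0.03), and neither was called. All 4 probe sets of Agpat3 were lower in NZB in sign, and the 2 dimmest passed the test (-0.46 and -0.40, adjusted p = 0.0390 and 0.0213), as did the mean of all 4 (-0.30, 0.0456). The monoacylglycerol acyltransferase gene Mogat1, the acyl-CoA synthetase gene Acsl3 and Pnpla3, a lipid droplet protein gene, differed by 0.14, 0.14 and 0.06, and the strains overlapped in each.

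**Figure D3:**
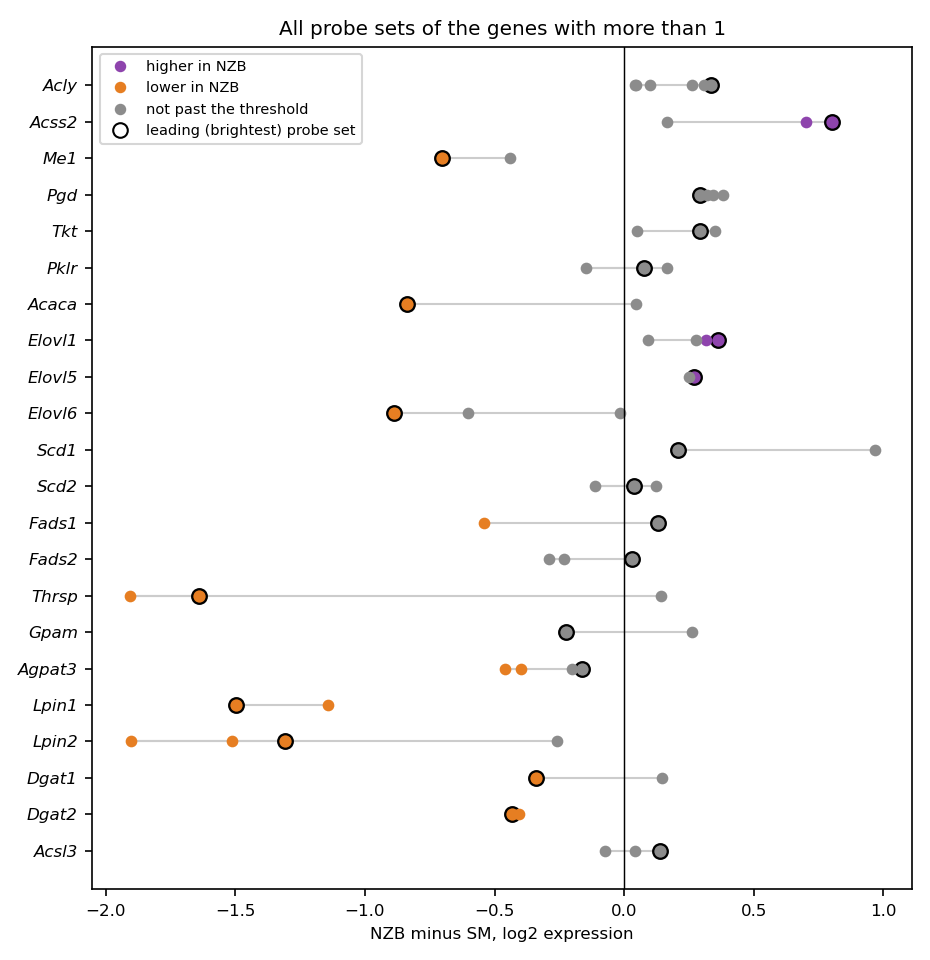
Difference in log2 expression, NZB minus SM, of every probe set of the 22 member genes with more than 1, each point a probe set and the outlined point the leading one. The probe sets of Lpin1, Lpin2 and Dgat2 lie on the lower side together, while Acaca, Thrsp and Dgat1 each have a probe set that was not called on the other side of 0.

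Over all 74 probe sets, 7 were higher in NZB and 17 lower (32.4% called), beside 14.8% of all probe sets (6.09% higher and 8.69% lower). The higher ones numbered 19 without SM replicate 1 and 3 without NZB replicate 3, and the lower ones 11 without NZB replicate 3 or SM replicate 2. Of the 14 called genes, 11 had several probe sets. A further probe set was called in the same direction for 6 of these and in the opposite direction for 0. Sequence variants between the strains can change how RNA binds single probes, and their part in the disagreements was not tested.

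A wider list of 58 genes of the same pathways was read beside the members, and 52 of them were measured. The test called 3 as higher in NZB and 10 as lower and left 39, 25.0% called beside 18.3% of all genes. Of these 52 genes 1 read under background on all arrays, against 2833 of all 18193 genes, so here too the 2 sets differ in brightness. With the mean of a gene's probe sets the same list had 8 higher and 7 lower. The gene with the largest difference was Ppargc1b, a coactivator of SREBP1 in mouse liver, at 8.75, 8.91 and 8.80 in NZB, against 9.82, 10.14 and 9.89 in SM. It was 2.19-fold lower in NZB (log2 difference -1.13, SE 0.0903, adjusted p = 8.8e-05). The lower genes included 4 further acyltransferases of glycerolipid synthesis. They were the glycerol 3-phosphate acyltransferase genes Gpat3 (-0.46) and Gpat4 (-0.48), and Agpat1 (-0.51) and Agpat5 (-0.48), with adjusted p of 0.00760 to 0.0147. Among the 10 genes of glycerolipid synthesis on this list 4 were lower, 0 higher and 6 did not pass. Over all genes 11.2% were lower and 7.09% higher. With the mean of its probe sets Agpat5 differed by -0.10 and was not called, and Gpat3 missed the threshold after quantile normalization (-0.37, adjusted p = 0.0503) and when NZB replicate 3 was left out (-0.39, 0.0636).

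Other genes of the list were lower at other steps. They were Gckr, the glucokinase regulator (-0.39), Rxra, the partner of LXR (-0.39), Fads6 (-0.48) and the mitochondrial fatty acid synthesis genes Oxsm (-0.36) and Mcat (-0.24). The call of Mcat ended without any 1 of the 6 arrays (adjusted p = 0.0526 to 0.103), and that of Oxsm without NZB replicate 3, SM replicate 1 or SM replicate 2 (0.0571 to 0.0627), and both calls ended after quantile normalization (0.149 for Mcat and 0.0553 for Oxsm). With the mean of their probe sets Rxra and Oxsm differed by -0.07 and -0.11 and were not called. The higher genes were Hsd17b12, the ketoacyl reductase of the elongation cycle (log2 difference 0.45, SE 0.0923, adjusted p = 0.0115), Usf1, an E-box factor (log2 difference 0.44, SE 0.0607, adjusted p = 0.00174), and Pparg (log2 difference 0.28, SE 0.0778, adjusted p = 0.0435). The call of Hsd17b12 ended without NZB replicate 3 (adjusted p = 0.0537) and that of Pparg without any array but NZB replicate 3 (0.0548 to 0.146) and with the array medians aligned (0.0712).

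The members also varied among mice of a strain. Their median SD within a strain was 0.115 in NZB and 0.166 in SM, beside 0.0750 and 0.0831 over all genes. The widest gap was in carbon and NADPH supply, with a median SD of 0.0923 in NZB and 0.30 in SM. NZB replicate 2 was the highest NZB mouse in 19 of 32 member genes (59.4%), beside 34.3% of all genes. SM replicate 1 was the highest SM mouse in 23 (71.9%), beside 39.7%, and SM replicate 3 the lowest in 17 (53.1%), beside 36.0%. The median supply gene stood 0.28 above its strain mean in SM replicate 1 and 0.32 below it in SM replicate 3. Thrsp, Srebf1 and Mlxipl spread more among NZB mice and Mid1ip1 more among SM mice, and the 4 regulators had medians of -0.18, 0.17 and -0.018 about the strain mean in NZB replicates 1, 2 and 3.

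**Figure D4:**
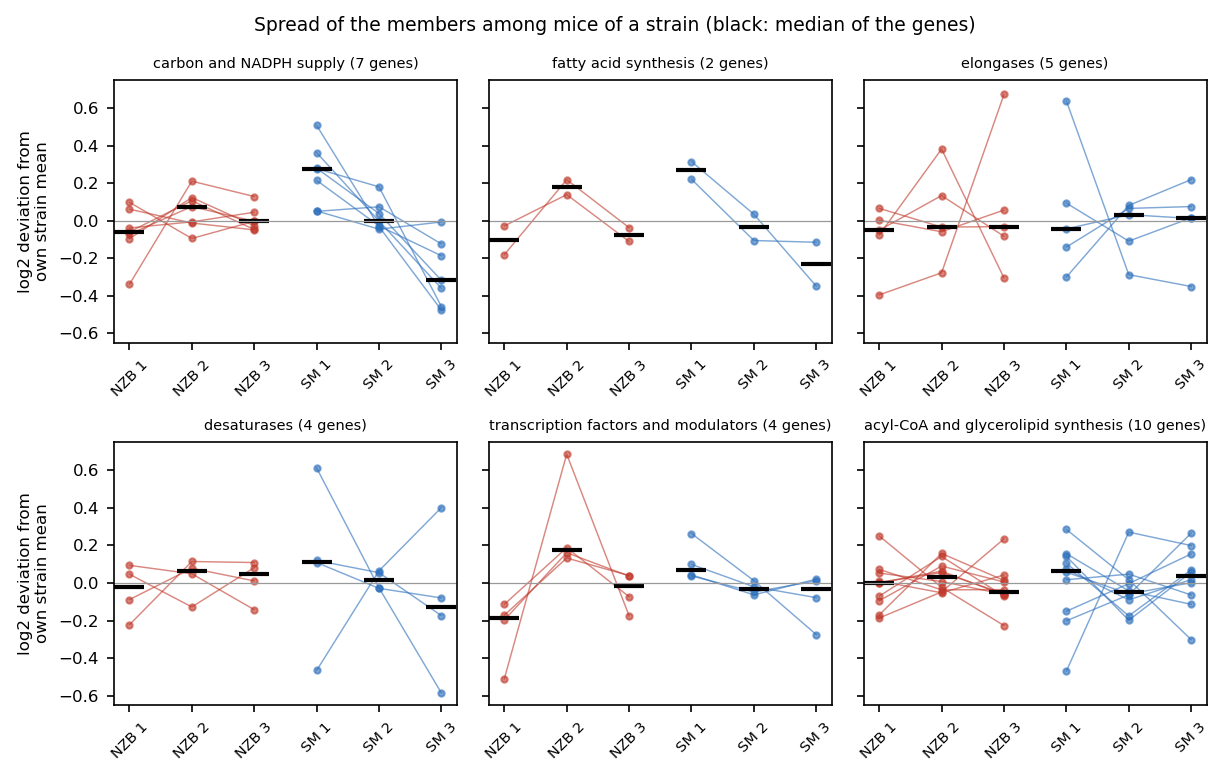
Deviation of each member gene on each array from the mean of its own strain, in log2 units, in 6 panels by role, with points of 1 gene joined by a line and the median of the genes as a black bar. The supply genes are high in SM replicate 1 and low in SM replicate 3, and the regulators are high in NZB replicate 2, Thrsp most of all.

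Transcripts of lipogenesis follow feeding and the time of day, and genes of both kinds differed between the strains. Of 8 measured genes of feeding and fasting, 3 were lower in NZB and none higher, Igfbp1 (-1.73), Cpt1a (-0.59) and Pck1 (-0.41), and 0 were called without SM replicate 2 or without NZB replicate 3. Without NZB replicate 2, or with trended and robust variances, 1 was called. The count was 2 without NZB replicate 1 or SM replicate 3, with the replicate block or after quantile normalization. It was 4 with 1 probe set per gene in the fit or the mean of a gene's probe sets. Aligned array medians, array weights and leaving out dim probe sets also gave 4. In the feeding and fasting list 37.5% were lower and 37.5% had arrays without overlap, beside 11.2% and 39.4% of all genes. Of 13 clock genes 8 (61.5%) were lower and 2 (15.4%) higher, beside 11.2% and 7.09% of all genes. All 13 had arrays that did not overlap between strains. The higher clock genes numbered 1 without NZB replicate 3 and 4 with array weights. Among the lower clock genes, Cry1 read under background on all 6 arrays, and 7 were lower with dim probe sets left out. Dbp, a clock output gene, read 7.92, 10.23 and 9.11 in NZB, against 11.33, 11.51 and 11.63 in SM. In Dbp and in Thrsp alike, NZB replicate 2 read nearest to SM and NZB replicate 1 farthest. Igfbp1 had the reverse order, at 11.33, 9.46 and 10.55 in NZB replicates 1, 2 and 3, against a mean of 12.18 in SM. The part of feeding state and time of day in the members' differences was not tested, and the labels give no hour of dissection.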

How the data were processed

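The deposited values are log2 expression per probe set, 1 column per mouse. RMA made them, per the submitters' processing notes, and the sources used here give neither its version nor its settings. The log base is not stated either and was read as log2 from the highest value, 14.9, which lies above the natural log limit of a 16-bit scanner, 11.1, and under 16. RMA compresses differences near background. Gene symbols came from the platform annotation, updated by Entrez ID through a RefSeq table (GRCm38.p6), and 34945 probe sets had 1 gene, 932 several and 9160 none. All 45037 probe sets entered a linear model of strain (lmFit and eBayes of limma 3.58.1, R 4.3.3) with two-sided tests and Benjamini-Hochberg adjustment. The fit was tested on simulated data, and no result of that test is given here. Intervals are at 95%, SD and n are over 3 mice, and the number of arrays limits the precision. The rule names all members, and of the wider list those past the threshold. Members and lists were chosen with earlier results of these data known, so their counts are descriptions. Alternatives covered scaling, variance model, array weights, filters, probe set choice, the replicate block and each array left out.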

Additional observations from a re-analysis of the deposited data

How the results depend on the processing

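Of the 14 called member genes, 9 kept their call and direction under all 15 alternatives (Me1, Slc25a1, Acaca, Elovl1, Elovl3, Thrsp, Lpin1, Lpin2 and Dgat2), and 5 lost the call under at least 1 (Acss2, Elovl5, Elovl6, Srebf1 and Dgat1). The higher member genes numbered 3 to 8 and the lower 7 to 10 with each array left out. The higher member probe sets then numbered 3 to 19 and the lower 11 to 18. With the array medians aligned 4 member probe sets were higher, and with the mean of a gene's probe sets 8 of the other pathway genes were higher and 7 lower. The members' median difference ran from -0.0487 (without SM replicate 3) to 0.0306 with each array left out, and was -0.0390 with the mean of a gene's probe sets. Dgat1 turned to 0.15 without probe sets marked for cross-hybridization, which leaves it its dim probe set. Among genes not called, signs turned for Fads1 (-0.21), Fads2 (-0.16) and Gpam (0.019) with the mean of their probe sets, and for Fads2 with aligned medians (-0.0022). With each array left out the difference also passed through 0 for Elovl2 (-0.052 to 0.21), Scd1 (-0.085 to 0.51), Scd2 (-0.0012 to 0.10), Fads2 (-0.20 to 0.23), Mid1ip1 (-0.24 to 0.028), Acsl3 (-0.014 to 0.28) and Pnpla3 (-0.023 to 0.12). The arrays whose absence turned the sign were SM replicate 1 for Elovl2, Fads2 and Mid1ip1, SM replicate 2 for Pnpla3, SM replicate 3 for Acsl3, Scd1 and Scd2, NZB replicate 2 for Fads2 (-0.0091) and NZB replicate 3 for Scd2 (-0.0012). The cause was not tested. Replicate numbers are shared by the strains, but deviations of same-numbered mice correlated at 0.037, -0.05 and 0.025, so the numbers were not taken to pair the mice. With the replicate block 5 member genes were higher and 8 lower, since Srebf1 lost its call (limma adjusted p = 0.0541). Over all probe sets 2745 were higher and 3914 lower, against 1482 and 2259 without NZB replicate 3 and 1635 and 2482 without SM replicate 2. Of the 74 member probe sets, 6 read under background on all arrays.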
